A study of Mus musculus with 8 samples.

Results

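The replication-dependent histone genes were taken as the protein-coding genes whose names begin with Hist1h, Hist2h, Hist3h or Hist4h. The rule found 67 genes among the 55933 genes of the deposited FPKM table (fragments per kilobase of transcript, scaled to library size). They comprised 6 linker histone H1 genes, 18 H2A genes, 18 H2B genes, 12 H3 genes and 13 H4 genes. Of these, 54 lie in the Hist1 cluster on mouse chromosome 13, 10 in Hist2 on chromosome 3, 2 in Hist3 on chromosome 11 and 1 in Hist4 on chromosome 6. A further 3 pseudogenes of the same name pattern held 6 reads over all libraries and were not used.

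Histones package DNA into nucleosomes, in which DNA is wrapped around H2A, H2B, H3 and H4 while H1 binds the linker. Most of these genes are transcribed in S phase, when new DNA needs new histones, and their mRNAs end in a conserved stem-loop bound by Slbp instead of a poly(A) tail. Some of them also make polyadenylated mRNAs, which are known from differentiated and non-dividing cells. In the pregnant mammary gland, epithelial cells both divide and differentiate into milk-secreting alveoli.

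The study asked what loss of Bmpr1a, a receptor for bone morphogenetic proteins, does to the mammary epithelium in pregnancy, and RNA was sequenced at pregnancy day 14.5 with 4 mice in each of the control and cKO groups and 1 library per mouse. The cKO mice carried K14-rtTA, teto-Cre and Bmpr1a fl/fl on a C57BL/6 background, and Cre was induced with doxycycline in the drinking water. K14-rtTA acts in K14-expressing myoepithelial cells, whereas the RNA came from epithelial preparations that also hold luminal cells. Controls were littermates, labelled WT. The alleles these littermates carried and whether they drank doxycycline are not given in the sources used here. Glands were digested with collagenase and hyaluronidase, and red cells were lysed. Whether poly(A)+ RNA was selected is likewise not given.

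The libraries held 16123108 to 19896988 reads on genes, so that 1 read on a 1-kilobase transcript was worth 0.0518 to 0.0630 FPKM. Bmpr1a itself was not lower in the cKO libraries (control mean 10.1 FPKM with an SD of 1.28, cKO mean 11.1 with an SD of 1.01, adjusted p = 0.560, limma), so every direction below rests on the labels. Of 5 myoepithelial markers 2 had a higher mean of log2(FPKM + 1) in cKO and 3 a lower one. Krt14 (753 FPKM in control and 577 in cKO) and Trp63 (3.58 and 2.45) were lower in the cKO libraries at an unadjusted p under 0.05, and both passed the adjusted threshold with the pairs of replicates 1 and 2 and 3 and 4 as a term (adjusted p = 0.0187 and 0.0456, limma). The other 3 did not pass either threshold, with a log2 difference of 0.21 for Acta2, 0.02 for Krt5 and -0.08 for Myh11. A term for these pairs of replicates rests on a split noticed in these data, which the labels do not give. Of 26 marker genes of other and expected cell types, 22 were tested, none passed an adjusted p of 0.05 without that term, 6 were lower in cKO at an unadjusted p under 0.05 and 1, Adipoq of adipocytes, was higher. Summed FPKM of the markers ranged in control and cKO from 4450.8 to 5645.2 and from 4335.5 to 5618.8 for luminal cells, and from 1519.5 to 2055.3 and from 1409 to 1942.6 for myoepithelial cells, so the labelled epithelium was present in every library. The same ranges were 2.59 to 17.9 and 1.51 to 3.06 for lymphocytes, 23.5 to 31.9 and 18.4 to 28.2 for macrophages, and 55.3 to 64.7 and 40.4 to 61.3 for endothelial cells. They were 126 to 272 and 88.1 to 191 for fibroblasts, 0.158 to 0.652 and 0.287 to 2.36 for adipocytes, and 18.98 to 25.96 and 13.11 to 23.99 for erythroid cells. No marker was at 0 over all libraries, and the part of these cells in the histone values was not tested. In these bulk libraries, fewer cells of a type and less RNA per cell cannot be told apart.

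The stem-loop was searched for in the annotated transcripts (GENCODE vM21, build GRCm38), after the stop codon, as a 16-base pattern with a 6-base stem and a 4-base loop. It was found in 44 of the 67 genes, against 20 of 22460 other protein-coding genes (0.089%). The 44 genes held 6 distinct stem-loops, of which the commonest stood in 26 genes. The stem-loops below, with 5 bases on each side, are of the highest H1 and H4 genes, of Hist1h4n, whose groups did not overlap, and of a gene with each of 2 further forms. Capitals mark the stem-loop.
Hist1h1c, chr13:23739507-23739532 (+): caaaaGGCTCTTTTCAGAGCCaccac
Hist1h4i, chr13:22040961-22040986 (-): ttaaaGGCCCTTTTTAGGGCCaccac
Hist1h4n, chr13:21831793-21831818 (-): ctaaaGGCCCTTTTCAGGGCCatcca
Hist1h4j, chr13:21735432-21735457 (+): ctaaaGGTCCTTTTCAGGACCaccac
Hist1h3c, chr13:23745042-23745067 (-): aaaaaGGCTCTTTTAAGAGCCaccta
In all 6 forms the arms of the stem are fully complementary, which the search pattern largely required. Of the 23 genes without a match, 15 had an annotated transcript that ended at or within 2 bases of the stop codon, where no stem-loop could be found.

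The histone genes fell into a few with substantial reads and many with almost none. Over the 8 libraries the 67 genes held 15309 reads, of which Hist1h1c, encoding an H1 linker histone, took 43.7%, Hist1h2bc, encoding an H2B, 30.8%, and Hist1h4i, encoding an H4, 5.94%. The other 64 genes shared 16.9 to 27.7 of every 1000000 reads on genes (RPM) in each library. Only 3 genes had a mean of at least 5 FPKM, 11 reached 1 FPKM, and 20 passed the filter of a mean of 0.5 FPKM over the 8 libraries and were tested. Of these 20, 4 (Hist1h4n, Hist1h3i, Hist1h4j and Hist1h1e) had a control mean under 0.5 FPKM and passed through their cKO values alone, whereas 0 passed through control alone. The gene just inside the filter was Hist1h1e (mean 0.575 FPKM) and the gene just outside was Hist1h3d (mean 0.472 FPKM). Of the 47 genes that were not tested, 11 had no read in any library and 7 had 1 to 9 reads in all.

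**Figure D1:**
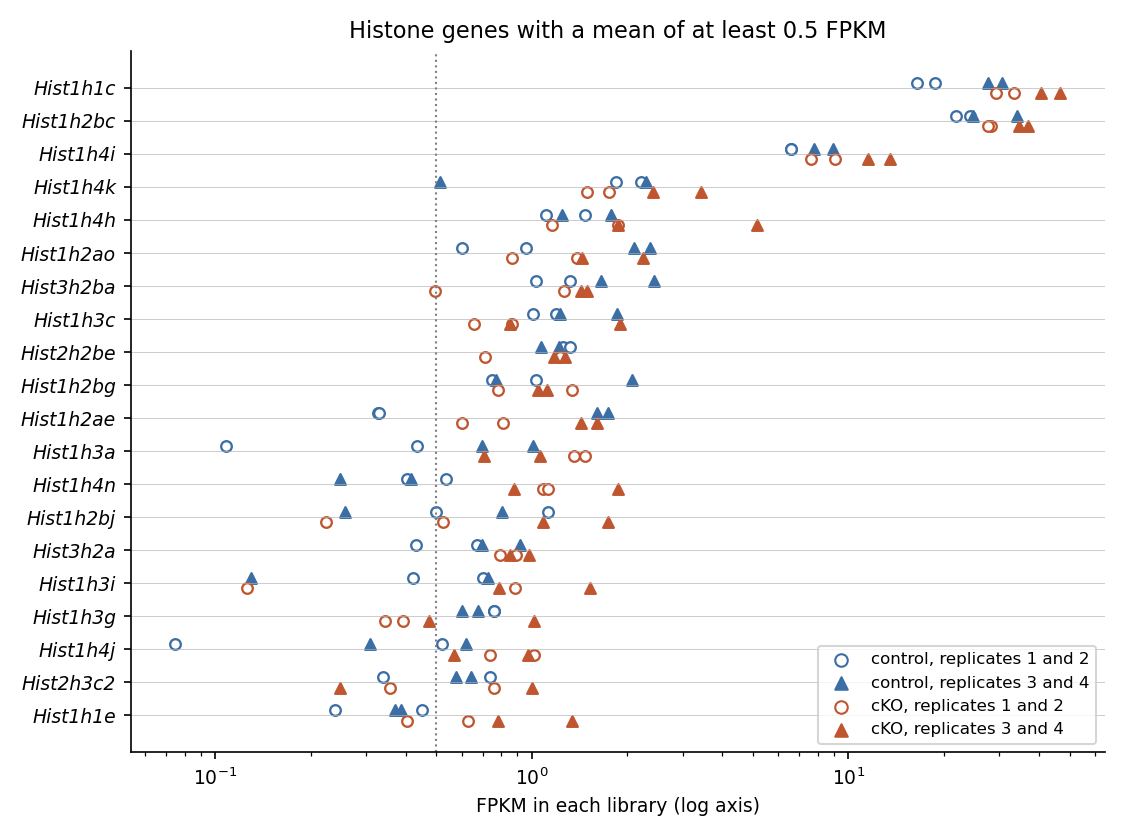
FPKM of the 20 tested histone genes in each of the 8 libraries on a log axis, 1 row per gene, with control in blue and cKO in orange, circles for replicates 1 and 2, triangles for replicates 3 and 4, and a dotted line at the 0.5 FPKM filter. Hist1h1c, Hist1h2bc and Hist1h4i stand apart from the other 17 genes, and Hist1h4n is the gene whose control and cKO libraries do not overlap.

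The 11 genes without a read were Hist1h1t, Hist1h2aa, Hist1h2ba, Hist1h2bl, Hist1h4b, Hist2h2aa1, Hist2h2aa2, Hist2h2ab, Hist2h2bb, Hist2h3b and Hist2h3c1. Hist1h1t, Hist1h2aa and Hist1h2ba encode histone forms known from the testis. For 5 of the 11 genes, every 100-base window of the transcript also occurred in another annotated gene, and the exons of 8 of the 11 overlapped another gene. The median share of such windows was 71.8% for the 11 genes and 32.5% for the 56 genes with reads. How the authors' counting treated reads that matched more than 1 gene is not given in the sources used here, so a 0 at the 9 of the 11 genes with an exon overlap or at least 50% of their windows shared does not show absence of the mRNA. Hist1h1t, with 0% of its windows shared, and Hist1h2ba, with 27.4%, had no exon overlap. Of the Hist2 genes, 6 of 10 had no read, compared with 5 of 54 in Hist1. Those 6 Hist2 genes are all among the 9 whose 0 does not show absence of the mRNA.

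Reads were concentrated in genes whose annotated transcript runs far beyond the stop codon. The 18 genes with an exonic length over 1000 bases held 84.6% of the histone reads, although their median level per length (0.252 FPKM) was close to that of the 49 shorter genes (0.223 FPKM). A poly(A) signal (AATAAA, counted after the stem-loop or, where none was found, after the stop codon) stood in 18 genes, which held 84.0% of the reads. Both shares are mostly those of Hist1h1c and Hist1h2bc. This grouping was chosen after the values were seen and is a description only. In Hist1h1c the stem-loop began 24 bases after the stop codon, and the annotated transcript went on for 840 bases with 1 AATAAA that began 26 bases before its end. Hist1h2bc had no stem-loop in its annotated transcript, which held 742 bases after the stop codon and 1 AATAAA. The third gene, Hist1h4i, differed, since its stem-loop was followed by 330 annotated bases without that signal. Long annotated ends were no sign of a high level, as Hist2h2be, an H2B gene with 2192 bases after the stop codon, had a mean of 1.157 FPKM, and Hist4h4, with 2515, had 0.0317 FPKM. The files give 1 value per gene, so stem-loop and polyadenylated forms of the same gene cannot be told apart.

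**Figure D2:**
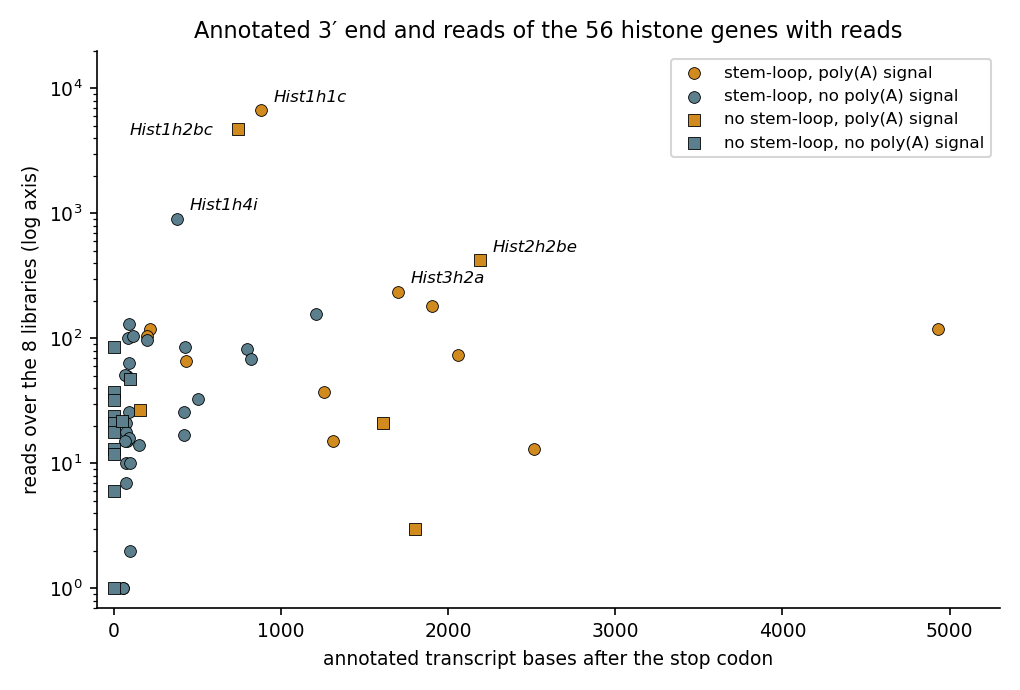
Reads over the 8 libraries (log axis) against the number of annotated bases after the stop codon for the 56 histone genes with reads, with circles for genes with a stem-loop, squares for genes without, orange for genes with the AATAAA poly(A) signal and grey-blue for genes without. Hist1h1c and Hist1h2bc lie above all others at 880 and 742 bases, while genes with longer ends hold 424 reads or fewer.

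Many H2A and H2B genes lie as divergent pairs that share the DNA between their starts, and 12 such pairs were found. Some pairs were unequal in level and others were not. Hist1h2ac had a mean of 0.211 FPKM and Hist1h2bc, which starts 250 bases away on the other strand, 29.1 FPKM. The next pair by level, Hist1h2ae and Hist1h2bg, was near equal at 1.06 and 1.11 FPKM, and Hist2h2ac and Hist2h2be had 0.133 and 1.157 FPKM. The promoter between Hist1h2ac and Hist1h2bc is shown because Hist1h2bc and a gene with 74 reads over all libraries start from it. It is given on the strand of Hist1h2ac as RefSeq lists it for that gene (there H2ac6, GRCm38.p6), chr13:23683910-23684209 (-), and capitals mark the octamer ATTTGCAT, the CCAAT box and the TATA box TATAAA on either strand.
Hist1h2ac promoter: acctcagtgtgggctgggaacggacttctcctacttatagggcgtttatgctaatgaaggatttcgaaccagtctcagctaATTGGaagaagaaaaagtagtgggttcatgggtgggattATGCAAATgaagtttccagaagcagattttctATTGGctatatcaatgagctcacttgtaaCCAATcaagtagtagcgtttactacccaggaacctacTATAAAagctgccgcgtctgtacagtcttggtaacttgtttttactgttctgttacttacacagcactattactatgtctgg
RefSeq promoters of 300 bases were found for 62 of the 67 genes. CCAAT on either strand was in 53 of the 62 (85.5%, against 37.9% of all 27025 promoters in the table) but in 3 of 12 H4 promoters. TATAAA was in 56.5% of the histone promoters, against 14.2% of all. ATTTGCAT was in 13 of the 62, namely 7 of 18 H2A and 6 of 16 H2B promoters, and in no H1, H3 or H4 promoter, against 1.75% of all. Windows of divergent partners overlap and are not independent. A match is a match of letters only.

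The first question was how the histone genes differed between cKO and control. Hist1h1c stood at 18.8, 16.5, 27.7 and 30.5 FPKM in control replicates 1 to 4 and at 33.4, 29.3, 40.6 and 46.8 FPKM in cKO replicates 1 to 4. The groups overlapped only between control replicate 4 and cKO replicate 2. The control mean was 23.4 ± 6.78 FPKM and the cKO mean 37.5 ± 7.72 FPKM (SD over 4 libraries). The log2 difference of 0.68 had a standard error of 0.21 (adjusted p = 0.163, limma), which did not pass the adjusted threshold, but with the pairs of replicates 1 and 2 and 3 and 4 as a term it did (adjusted p = 0.0186, limma). Over all genes 0.892% passed without that term and 2.92% with it.

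Hist1h2bc had 21.8, 24.3, 24.7 and 34.2 FPKM in control and 28.1, 27.7, 36.8 and 34.7 FPKM in cKO. Only control replicate 4 reached the cKO range. The log2 difference was 0.28 with a standard error of 0.15 (adjusted p = 0.390, limma). Hist1h4i had 6.59, 6.59, 8.95 and 7.77 FPKM in control and 7.62, 9.09, 13.5 and 11.6 FPKM in cKO. Its groups overlapped between 7.62 and 8.95 FPKM, and its log2 difference was 0.41 with a standard error of 0.16 (adjusted p = 0.255, limma). Together the 67 genes took 78.6, 79.4, 99.6 and 115 RPM in control and 110, 107, 138 and 141 in cKO, so that 1 control library, replicate 4, lay inside the cKO range.

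**Figure D3:**
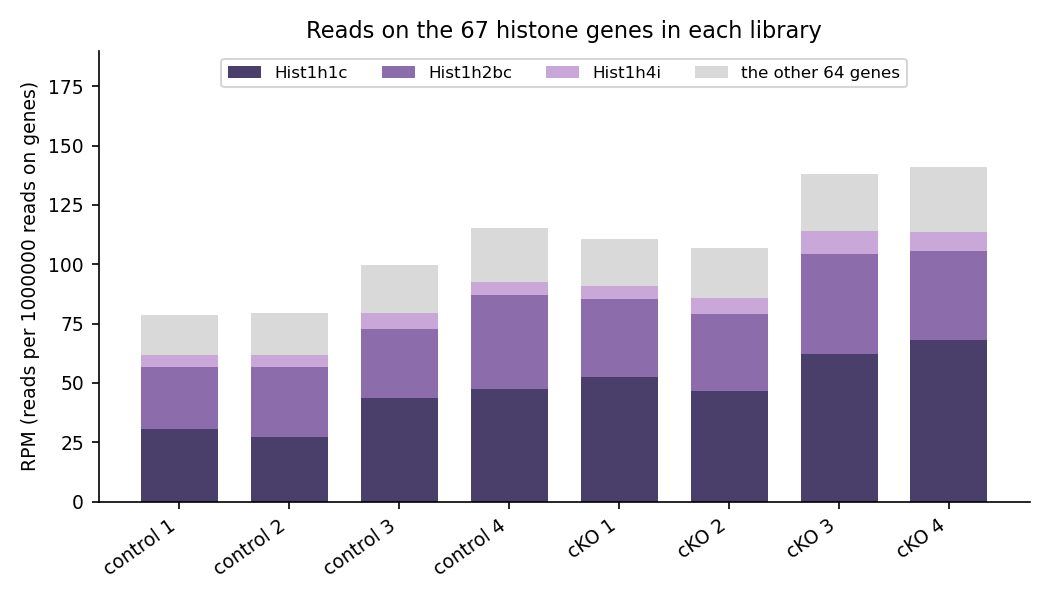
RPM on the 67 histone genes, in reads per 1000000 reads on genes, as stacked bars for each of the 8 libraries, divided into Hist1h1c, Hist1h2bc, Hist1h4i and the other 64 genes. In both groups replicates 3 and 4 are higher than replicates 1 and 2, and the cKO libraries range from 107 to 141 against 78.6 to 115 in control.

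Without a block for the replicates, none of the 20 tested histone genes passed an adjusted p of 0.05 in limma over all genes or in limma-voom on the reads recovered from the FPKM, where 0.892% of all 15143 tested genes passed in limma. At an unadjusted p under 0.05 both tools gave 6 of the 20, against 16.4% of all genes in limma. All 6 in limma were higher in cKO, where 8.85% of all genes were higher and 7.53% lower at that threshold. Over all genes these were 1340 higher and 1140 lower, which became 789 and 1657 with values rescaled to TPM, while the histone genes again gave 6 higher and 0 lower. Without the level filter, 9 of the 56 histone genes with reads were higher and 2 lower, where 5.51% of all 31373 genes were higher and 4.80% lower. Without cKO replicate 3 or cKO replicate 4, 3 of the 20 were higher and 1 lower, where 8.72% or 7.29% of all genes were higher. Without control replicate 2 the 6 became 2, where 7.79% of all genes were higher. Of the 6 genes, 3 (Hist1h4n, Hist1h4j and Hist1h1e) passed the filter through cKO alone and so had to be higher there, and the count is a description only. The 20 genes had a median log2 difference of 0.21, and the mean of log2(FPKM + 1) was higher in cKO for 14 of them, whereas the median over all genes was under 0.001 and 50.2% of all genes were higher. The 14 include the 4 genes that entered through cKO alone, and the 20 do not stand for all 67. Without the filter, the median over the 56 genes with reads was 0.05, and it was 0.14 over the 11 genes with a mean of at least 1 FPKM. Over the 20 genes it was 0.12 without cKO replicate 3, 0.14 without cKO replicate 4 and 0.33 without cKO replicate 1.

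Of the 20 genes, 1, Hist1h4n, had groups that did not overlap, and it was higher in cKO, where 6.1% of all genes were higher without overlap and 4.6% lower. The count was 5 without control replicate 4, 4 without cKO replicate 1, 3 without cKO replicate 2, and 2 without control replicate 1 or 3 or cKO replicate 3 or 4, and with a library left out 7.57% to 8.88% of all genes were higher without overlap. Hist1h4n was also 1 of the 4 genes that passed the filter through cKO alone, and at a mean of at least 1 FPKM the count was 0. This H4 gene had 0.537, 0.403, 0.416 and 0.248 FPKM in control and 1.08, 1.13, 0.879 and 1.88 FPKM in cKO. The log2 difference was 0.66 with a standard error of 0.14 (adjusted p = 0.0687, limma), and it rested on few reads, with 2 to 4 in each control library and 6 to 15 in each cKO library. The difference was 1.40 with a pseudocount of 0.1 and 1.49 in limma-voom. Of its 100-base windows, 80.7% also occurred in another gene, mainly its near-identical neighbour Hist1h4m, so its level is uncertain.

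Of the other genes at an unadjusted p under 0.05, Hist1h3a, an H3 gene, had 0.108, 0.432, 1.01 and 0.698 FPKM in control and 1.36, 1.48, 1.06 and 0.706 FPKM in cKO (log2 difference 0.48, adjusted p = 0.257, limma). Its 2 lowest libraries were control replicates 1 and 2, and in replicates 3 and 4 the groups were interleaved. Hist1h4j, an H4 gene, had 0.522, 0.0746, 0.308 and 0.620 FPKM in control and 0.736, 1.02, 0.569 and 0.974 FPKM in cKO (log2 difference 0.41, adjusted p = 0.213, limma). Hist1h1e, an H1 gene whose exons overlap Hist1h2be on the same strand, had 0.448, 0.239, 0.371 and 0.387 FPKM in control and 0.403, 0.628, 0.783 and 1.34 FPKM in cKO (log2 difference 0.37, adjusted p = 0.271, limma), and without cKO replicate 4 the difference was 0.23. In limma-voom the differences were 1.21 for Hist1h3a, 1.28 for Hist1h4j and 0.99 for Hist1h1e. In each of these 3 genes 1 or more cKO libraries lay within the control range.

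The other genes named by level or by p did not separate the groups. Hist1h4h, an H4 gene, reached 5.16 FPKM in cKO replicate 4 while the other 7 libraries lay between 1.11 and 1.88 FPKM (log2 difference 0.44, adjusted p = 0.486, limma), and without that library the difference was 0.13. Hist1h4k, also an H4 gene, had a log2 difference of 0.30 with a control range from 0.512 to 2.30 FPKM, and without control replicate 4, its lowest library, the difference was 0.0349 (0.14 without cKO replicate 3). Below 0 lay Hist3h2ba, an H2B gene, at -0.27, Hist1h3c at -0.19 and Hist1h3g at -0.15, both H3 genes, and Hist2h2be at -0.09, none with an adjusted p under 0.57. Single libraries moved these values, as Hist3h2ba was at -0.09 without cKO replicate 2 and -0.12 without control replicate 3, and Hist1h3g at -0.08 without cKO replicate 2 and -0.28 without cKO replicate 4. Hist1h3c was at -0.08 without control replicate 4, -0.09 without cKO replicate 1 and -0.36 without cKO replicate 3. Hist1h2ao (0.03), Hist1h2bg (-0.02), Hist1h2ae (0.14) and Hist3h2a (0.17, or 0.09 without control replicate 2) were the remaining named genes. Hist1h2ao shared 92.7% of its windows with another gene, mainly Hist1h2ap.

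**Figure D4:**
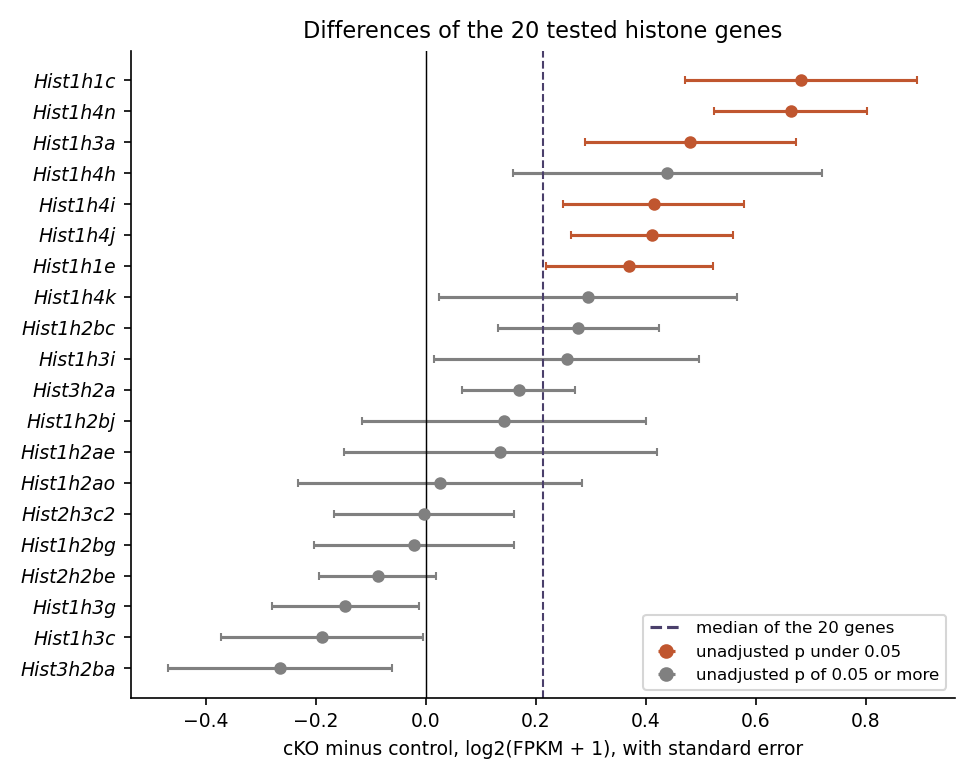
Log2 difference, cKO minus control on the log2(FPKM + 1) scale, with its standard error (n = 4 per group) for the 20 tested histone genes, in orange at an unadjusted p under 0.05 and grey otherwise, with a dashed line at their median of 0.21. The values run from -0.27 for Hist3h2ba to 0.68 for Hist1h1c, and the 6 orange genes all lie to the right of 0.

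By histone class, the mean of log2(FPKM + 1) was higher in cKO for 2 of 2 tested H1 genes, 5 of 5 H4 genes, 3 of 3 H2A genes, 2 of 5 H2B genes and 2 of 5 H3 genes. The H2A gene Hist1h2ao was lower in TPM and in its mean FPKM (1.51 in control and 1.48 in cKO), and the H3 gene Hist2h3c2 was higher in its mean FPKM. The counts include the 4 genes that passed the filter through cKO alone, 1 of H1, 1 of H3 and 2 of H4. The median log2 difference was 0.53 for H1, 0.41 for H4, 0.14 for H2A, -0.02 for H2B and -0.00288 for H3. Summed FPKM in control and cKO ran from 17.2 to 31.5 and from 30.6 to 49.3 for all H1 genes, mostly Hist1h1c, and from 11.7 to 14.9 and from 13.9 to 23.5 for all H4 genes. The same ranges were 3.01 to 7.02 and 4.56 to 8.04 for H2A, 27.4 to 42.6 and 32.1 to 43.7 for H2B, mostly Hist1h2bc, and 3.54 to 5.45 and 4.58 to 6.73 for H3. The groups overlapped in every class. Whether classes differed from each other was not tested. The 15 tested genes with a stem-loop had a median of 0.17, and the 5 without one had a median of 0.26. The 6 genes at an unadjusted p under 0.05 were all among the 15, and 3 of the 6 passed the filter through cKO alone.

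Replicates 1 and 2 were compared with 3 and 4 because these pairs separate in the profile over all genes, a split that the labels do not explain and that was noticed in these data. Deviations from the group means correlated across genes at 0.13 on average between control and cKO libraries of the same pair with different numbers, and at -0.12 across pairs. No p is given for the split. In both groups Hist1h1c was higher in replicates 3 and 4 (27.7 and 30.5 FPKM in control, 40.6 and 46.8 in cKO) than in replicates 1 and 2 (18.8 and 16.5, 33.4 and 29.3). The log2 difference between the replicate pairs was 0.69 within control and 0.46 within cKO. Hist1h2bc differed by 0.32 and 0.35 and Hist1h4i by 0.30 and 0.53. The same held without overlap for Hist1h2ae (1.01 and 0.56) and Hist1h2ao (0.87 and 0.42), both H2A genes, and for Hist3h2ba (0.47 and 0.42). Of the 6 genes, Hist1h2ae had the widest difference within control, from 0.328 FPKM in both of control replicates 1 and 2 to 1.61 and 1.74 FPKM in 3 and 4.

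In all, 6 of the 20 tested histone genes were higher in replicates 3 and 4 in both groups without overlap, against 11.9% of all genes, and 0 were lower, against 10.2% of all genes. With values rescaled to TPM the 6 became 4, and the share of all genes became 3.51%. The median difference over the 20 genes was 0.22 on the log2 scale, against 0.01 over all genes, with 0.20 within control and 0.41 within cKO, and it was 0.08 over the 56 genes with reads. Other groups of genes moved with the same split. Of the replication-independent histone genes 6 of 11 were higher in replicates 3 and 4 without overlap, as were 3 of 4 luminal and 4 of 5 myoepithelial markers, while the fifth, Trp63, was lower. Of 18 genes of histone mRNA processing and transcription, 1 was higher and 4 were lower. Without overlap, 3 of 10 mitosis genes and 3 of 18 S phase genes were also higher in replicates 3 and 4. In both lists 0 were lower, and the median differences were 0.31 and 0.12. The FPKM summed over all genes was 291204 to 308938 in replicates 1 and 2 and 325285 to 348018 in replicates 3 and 4. The part of these in the histone values was not tested.

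**Figure D5:**
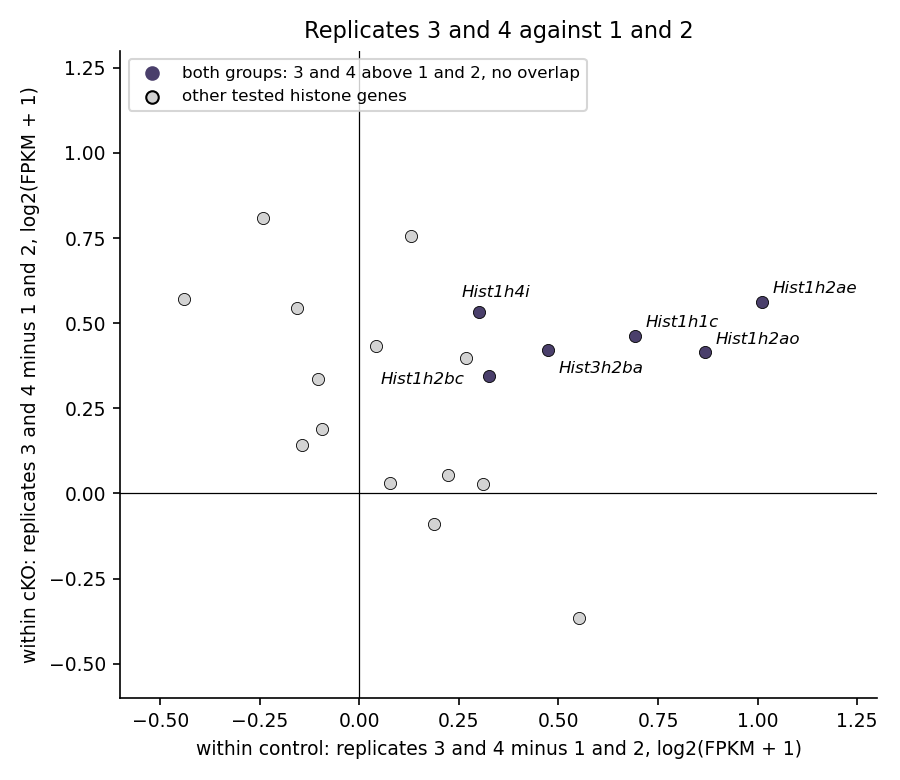
Log2 difference between replicates 3 and 4 and replicates 1 and 2 on the log2(FPKM + 1) scale within control (horizontal) and within cKO (vertical) for the 20 tested histone genes, with the 6 genes higher in replicates 3 and 4 in both groups without overlap in dark colour and named. No tested gene lies in the lower left quadrant, where both differences would be negative.

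Groups were also compared within the replicate pairs. Both cKO values lay above both control values within replicates 1 and 2 and again within 3 and 4 for 4 of the 20 genes (Hist1h1c, Hist1h2bc, Hist1h4i and Hist1h4n), against 11.4% of all genes. The reverse held for 0 of the 20 genes, against 8.9% of all genes. Hist1h4n had passed the filter through cKO alone. Among the 36 genes with reads below the filter, 1 (Hist1h2be) was higher in cKO in both pairs and 2 (Hist1h2ab and Hist1h2bb) were lower. This count was added after the values were seen. The groups of Hist1h2be also did not overlap over the 8 libraries (means of 0.186 FPKM in control and 0.399 in cKO). For Hist1h1c the log2 difference between cKO and control was 0.80 within replicates 1 and 2 and 0.57 within 3 and 4. Hist1h4i differed by 0.30 and 0.53, Hist1h2bc by 0.27 and 0.29, and Hist1h4n by 0.52 and 0.81. With the replicate pairs as a term in limma, 2.92% of all genes passed the adjusted threshold, and of the 20 histone genes Hist1h1c passed it (adjusted p = 0.0186). The genes Hist1h4i, Hist1h4n and Hist1h2bc did not pass (adjusted p = 0.0528, 0.0587 and 0.153). The median over the 20 genes was 0.15 within replicates 1 and 2 and 0.18 within 3 and 4.

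The genes that serve histone mRNA were given beside the histone genes, from lists that are not members. Slbp, which binds the stem-loop, had 7.54, 7.19, 7.69 and 7.71 FPKM in control and 6.24, 6.45, 6.27 and 6.35 in cKO, without overlap (log2 difference -0.22, adjusted p = 0.0979, limma). Npat, which drives histone transcription in S phase, had a log2 difference of 0.08 (adjusted p = 0.764). Of 19 genes of histone mRNA processing and transcription 18 were tested and 0 passed the adjusted threshold. At an unadjusted p under 0.05, 4 were lower in cKO (Slbp, Srrt, Upf1 and Lsm1) and 1 was higher (Ncbp2, a subunit of the cap-binding complex, at 0.20). Over all genes 7.53% were lower and 8.85% higher at that threshold.

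For genes of S phase the mean was mostly lower in cKO, but most did not pass either threshold. Of 18 tested genes 17 had a lower mean of log2(FPKM + 1), 0 passed the adjusted threshold and 5 were lower at an unadjusted p under 0.05, namely E2f1, Mcm3, Mcm6, Mcm7 and Pcna. Over all genes 50.2% had a higher mean, and 7.53% were lower at that unadjusted threshold. With the replicate pairs as a term 1 passed the adjusted threshold, Mcm7, a subunit of the replicative helicase (log2 difference -0.32, adjusted p = 0.0322, limma). Pcna, the sliding clamp of DNA replication, had 66.7, 64.9, 68.3 and 71.4 FPKM in control and 54.5, 54.8, 65.2 and 50.6 FPKM in cKO (log2 difference -0.27, adjusted p = 0.158, limma). The median log2 difference of the list was -0.19. Of 10 genes of mitosis 0 passed either threshold, and Mki67, a marker of cycling cells, had a log2 difference of 0.05 (adjusted p = 0.904). The lowest p of that list were those of Aurkb and Ccnb1, both regulators of mitosis, at -0.33 and 0.25 (adjusted p = 0.496 and 0.593, limma).

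The genes listed as replication-independent histones were compared as well. Of 11 tested genes 8 had a lower mean of log2(FPKM + 1) in cKO, 0 passed the adjusted threshold, and H1fx, H2afx and H3f3a were lower at an unadjusted p under 0.05. H1fx, a linker histone variant, had 3.37, 4.22, 5.54 and 4.90 FPKM in control and 1.96, 1.94, 3.52 and 3.32 FPKM in cKO (log2 difference -0.59, adjusted p = 0.157, or 0.0241 with the replicate pairs as a term, limma), whereas the mean of Hist1h1c was higher in cKO. H1f0, another linker histone of the list, also had a higher mean in cKO (23.0 FPKM in control and 29.7 in cKO). The log2 difference of H1f0 was 0.35 (adjusted p = 0.312, or 0.111 with the replicate pairs as a term, limma). Of 12 histone chaperone genes all 12 had a lower mean of log2(FPKM + 1) in cKO, 0 passed the adjusted threshold, and Nasp and Hirip3 were lower at an unadjusted p under 0.05. Over all genes 50.2% had a higher mean, and 7.53% were lower at that unadjusted threshold. Whether these lists differed from the histone genes was not tested.

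Other RNAs without a poly(A) tail were examined beside the histone genes. Of 11 such genes 6, Rmrp and Rpph1 among them, were listed at 0 in all libraries and 2 were tested. Rn7sk, the RNA of the 7SK particle, which holds back transcription elongation, had 7.32, 6.28, 6.85 and 17.5 FPKM in control and 22.5, 13.7, 12.9 and 44.2 FPKM in cKO (log2 difference 1.158 with a standard error of 0.42, adjusted p = 0.214, limma). Its highest library in each group was replicate 4, and control replicate 4 lay within the cKO range, as it did for the summed histone reads. Rnu12, a small nuclear RNA, was at 0 in control replicates 1 and 3 and in cKO replicate 1 and reached 2.12 FPKM at most. The next, Rny1, a small RNA of Ro particles, had a mean of 0.120 FPKM. The part of RNA selection in the histone and Rn7sk values was not tested.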

How the data were processed

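The authors made libraries with a NEBNext Ultra kit, aligned reads by Hisat2 to GRCm38 and derived FPKM, and used DESeq2 for their own tests. The submitters' processing notes also name featureCounts 1.5.0-p3 and StringTie 1.3.3b. The deposited table gives FPKM per gene and library. Each value times gene length was a whole multiple of 1 read for 100% of values above 0 (tolerance 0.01 reads), which gave the reads. Strand-specific counting is not stated, and replicates are separate mice.

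Groups were compared with limma 3.58.1 (R 4.3.3) on log2(FPKM + 1), empirical Bayes with trend and Benjamini-Hochberg adjustment, over 15143 genes with a mean of at least 0.5 FPKM. Fold changes on this scale understate low genes. The test was checked on simulated reads, with a dispersion of 0.02 and no split of replicates. It recovered 85.2% of changes of 2-fold or more and 9.59% of 1.41-fold changes, with 6.46% false calls. Smaller differences could thus be missed. Alternatives were another pseudocount, filters, TPM, blocks, limma-voom on the reads and leaving out each library. Other steps used Python 3.11.15. The members and lists were chosen with earlier results of these data known. Named histone genes were the 12 highest by mean FPKM, the 12 lowest p, up to 8 non-overlapping genes with the widest difference between replicates 1 and 2 and 3 and 4, and any adjusted call. From the other lists, Slbp, Npat, Pcna and Mki67 were named, with the adjusted calls or the lowest p of each list. The remaining genes at an unadjusted p under 0.05 there were named after their values were seen.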

Additional observations from a re-analysis of the deposited data

Results flagged for a closer look

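For the named genes and the summed histone reads, 66 groups of 4 libraries were examined for a library far from the others, and 2 stood out, where chance gives about 1 in 20 (3.3 of 66). Hist1h3c in cKO replicate 3 was at 1.90 FPKM while the other cKO libraries lay between 0.658 and 0.866 FPKM. Rn7sk in control replicate 4 was at 17.55 FPKM while the other control libraries lay between 6.28 and 7.32 FPKM.

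For 2 of the named histone genes both cKO libraries lay on opposite sides of both control libraries in the replicate pairs, and the difference between the pairs was not tested. Hist1h4k differed by -0.21 on the log2 scale within replicates 1 and 2 and by 0.80 within replicates 3 and 4, and Hist1h2ae by 0.36 and -0.09. Both rest on 3 to 23 reads per library.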

How the results depend on the processing

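All alternatives are from the same 8 libraries. Of 317 single-gene values under the 19 alternatives, 304 kept their direction and side of the adjusted threshold, 4 newly passed it and 9 changed sign. Hist1h1c passed with the replicate block (log2 difference 0.68, adjusted p = 0.0394), the block of replicates 1 and 2 against 3 and 4 (adjusted p = 0.0186) and limma-voom with the replicate block (adjusted p = 0.00636), and Hist1h4n with protein-coding genes alone (adjusted p = 0.0335), 1 histone gene each instead of 0. The numbers did not pair the samples by the rule used, as same-numbered libraries' deviations correlated from 0.0797 to 0.137 and 3 of 8 libraries correlated best with their own number. Over all genes the 135 adjusted calls became 50, 442, 680 and 266 in these 4 settings in turn (252 in limma-voom without the block).

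The count at an unadjusted p under 0.05 was 11 of 56 without a filter (9 higher and 2 lower, against 10.3% of all genes), 2 of 11 at a mean FPKM of at least 1 (against 17.4%), and 2 to 7 of 20 with a library left out (2 without control replicate 2). Adjusted calls were 0 with each library left out, which shows no stability, since over all genes they were 0 to 78. The median of 0.21 became 0.37 with a pseudocount of 0.1, 0.0504 without a filter, 0.14 at a mean of at least 1, 0.41 in limma-voom and 0.12 to 0.33 with a library left out. Non-overlapping genes numbered 2 without a filter, 0 at a mean of at least 1, 2 in TPM and 1 to 5 with a library left out (5 without control replicate 4), where 3.55%, 6.65%, 3.52% and 7.57% to 8.88% of all genes were higher without overlap. For replicates 3 and 4 against 1 and 2, 10 genes passed without a filter (against 6.5% of all genes) and 6 to 8 with a library left out (against 13.8% to 17.1%). The median of 0.22 became 0.41 with a pseudocount of 0.1, 0.0804 without a filter, 0.42 at a mean of at least 1 and 0.18 to 0.30 with a library left out.

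The sign changed for Hist1h2ao in TPM (-0.00601) and without control replicate 1 (-0.17), control replicate 2 (-0.07) or cKO replicate 4 (-0.11), for Hist1h2ae without control replicate 1 (-0.03) or 2 (-0.03), for Hist1h2bg without control replicate 4 (0.16) or cKO replicate 2 (0.05) and for Hist2h2be without cKO replicate 1 (0.00688). With a library left out these values ran from -0.17 to 0.19 for Hist1h2ao, -0.0329 to 0.32 for Hist1h2ae, -0.11 to 0.16 for Hist1h2bg and -0.13 to 0.00688 for Hist2h2be. None of these was called. Fewer histone genes are tested at the higher filter. The cause of the other changes was not tested. Under 100 reads over all libraries for 54 of the 67 genes limit what could be detected.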
